A study of Mus musculus with 23 samples.

Results

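The enterocyte lipid absorption genes are 10 genes of 22350 in the RNA-seq tables, chosen by name from textbook knowledge of how the small intestine takes up and exports fat. They are Cd36 and Npc1l1 (uptake), Fabp1 and Fabp2 (binding in the cytosol), Dgat1 (esterification), Mttp and Apob (lipoprotein assembly), and Apoa1, Apoa4 and Apoc3 (apolipoproteins on the particle). Reads per gene were followed in every RNA-seq and Ribo-seq group of a study of Rptor loss in the mouse small intestine. Rptor encodes Raptor, the defining subunit of the mTORC1 kinase complex.

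All groups were of C57BL/6 background. For mRNA, WT organoids carried the genotype VillinCre.ERT2.RPL22.HA (2 lines, 2 technical libraries each) and Rptor organoids VillinCre.ERT2.Rptor.fl/fl (2 lines, 2 technical libraries each), and both are labelled untreated. The paper describes tamoxifen induction of Cre for animals of these VillinCre.ERT2 genotypes, and in vitro for an extra Rptor.fl/fl set. Which of these applies to each sequenced organoid line is not recorded in the labels. Stem cell enriched (SCe) organoids carried VillinCre.ERT2.RPL22.HA and were grown in ENR medium (EGF, Noggin and R-spondin) with the GSK3 inhibitor CHIR99021 (10 µM) and the histone deacetylase inhibitor valproic acid (1.5 mM; 3 lines, 1 library each). Organoids are cultures grown from crypts that hold epithelium only. For Ribo-seq, which counts ribosome protected fragments (RPF), SCe organoids of that genotype and treatment (3 libraries) were compared with VillinCre.ERT2.Rptor.fl/fl.RPL22.HA organoids (3 libraries). Neither compound is recorded for these Rptor organoids. RPL22.HA is a tagged ribosomal protein switched on by Cre, so that pulling down the tag takes ribosomes from Cre-expressing cells. The Rptor organoids of the mRNA arm are labelled without that tag. In mice, RPF came from the small intestine of WT animals (3 libraries; Lgr5Cre.ERT2.RPL22.HA) and of Rptor animals (3 libraries; Lgr5Cre.ERT2.Rptor.fl/fl.RPL22.HA), all aged 8 to 12 weeks and taken 24 h after tamoxifen. Lgr5 drives Cre in crypt base stem cells and Villin drives it throughout the gut epithelium. The paper counts 2 biological replicates each for Rptor and WT organoid mRNA, and 3 per group for mouse Ribo-seq. For the sequenced organoid lines it does not state that they came from separate animals. The p-values measure only the spread between these samples, and for organoids how far it reflects separate animals is not known.

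Dietary fat is broken down in the gut lumen to fatty acids, monoglycerides and free cholesterol, which enter enterocytes across the brush border. Inside the cell, fatty acids are carried by binding proteins, rebuilt into triglyceride at the endoplasmic reticulum and loaded by microsomal triglyceride transfer protein onto apolipoprotein B to make chylomicrons, which leave the cell toward the lymph. The whole set is a hallmark of differentiated absorptive cells of the upper small intestine and is low in stem, Paneth and goblet cells.

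Library totals ran from 23802944 to 67598878 mRNA reads and from 772077 to 8257457 RPF. Rptor mRNA was 51.5 and 47.9 counts-per-million (CPM) in WT and 14.8 and 15.5 CPM in Rptor organoids, a log2 fold change of -1.71 (adjusted p = 0.0052). The lower level of Rptor RPF did not pass the test in organoids (-0.53, adjusted p = 0.317) or mice (-0.28, adjusted p = 0.15), so those Ribo-seq libraries are called Rptor-labelled. Of the 3 SCe lines, number 1 stood apart in both assays. Its 10 enterocyte markers summed to 1534 mRNA CPM against 6688 and 7213 CPM in the other lines, so results that rest on it are given with and without it. It was singled out after seeing the data, by markers of the cell type to which the 10 genes belong. Leaving it out removes spread between samples. In every comparison the p-values without it thus follow in part from that choice and describe the remaining samples only. In mice, Lgr5 itself was between 6.32 and 45.8 CPM while the 10 enterocyte markers summed to between 40178 and 42193 CPM. The highest Lgr5 value came from Rptor-labelled mouse 1, and the next highest was 11.4 CPM in WT mouse 1. These libraries also held RPF of pancreatic acinar (819 to 2073 CPM), smooth muscle (1129 to 1359 CPM) and immune markers (960 to 1288 CPM). The defining stem cell marker was thus low beside the enterocyte markers in every one of these libraries.

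Of the 10 genes, Apoa1, Apoc3 and Apoa4 sit side by side on chromosome 9. In mm10 coordinates, Apoa1 is at chr9:46228580-46230466 (+), Apoc3 at chr9:46232933-46235636 (-) and Apoa4 at chr9:46240696-46243459 (+). Apob is at chr12:7977648-8016835 (+), Cd36 at chr5:17781690-17888801 (-), Dgat1 at chr15:76502015-76511953 (-), Fabp1 at chr6:71199827-71205023 (+), Fabp2 at chr3:122895072-122899506 (+), Mttp at chr3:138089854-138144968 (-) and Npc1l1 at chr11:6211013-6230143 (-). Promoter windows from 250 bases before to 50 after the start site (RefSeq, GRCm38.p6) were at hand for 8 of the 10 genes, all but Apoc3 and Dgat1. They were searched on both strands for the motif CAAAGTNCA of HNF4 factors, TTTATNG of CDX factors, AGATAA of GATA factors and the TATA box TATAAA. HNF4, CDX and GATA factors are regulators of the intestinal epithelium. The 250 bases before the start site are shown for the 4 genes with a match, 5′ to 3′ on the gene's strand, with the matches in capitals, since these windows carry every match found.
Apoa4, chr9:46240594-46240843 (+): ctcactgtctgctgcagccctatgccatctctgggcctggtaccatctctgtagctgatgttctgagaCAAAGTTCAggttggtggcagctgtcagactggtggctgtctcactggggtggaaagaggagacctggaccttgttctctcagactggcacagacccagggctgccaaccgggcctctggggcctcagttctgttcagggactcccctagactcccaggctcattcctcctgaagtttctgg
Fabp2, chr3:122894822-122895071 (+): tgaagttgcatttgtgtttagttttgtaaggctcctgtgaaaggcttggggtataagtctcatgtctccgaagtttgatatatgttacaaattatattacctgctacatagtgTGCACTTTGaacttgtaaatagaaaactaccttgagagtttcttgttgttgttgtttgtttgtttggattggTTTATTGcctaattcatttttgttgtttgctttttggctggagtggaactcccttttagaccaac
Fabp1, chr6:71199629-71199878 (+): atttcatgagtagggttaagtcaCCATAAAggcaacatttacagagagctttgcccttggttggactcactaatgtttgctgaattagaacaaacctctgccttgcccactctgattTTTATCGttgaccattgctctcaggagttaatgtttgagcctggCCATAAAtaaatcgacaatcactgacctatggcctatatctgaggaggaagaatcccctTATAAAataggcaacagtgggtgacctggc
Apob, chr12:7977427-7977676 (+): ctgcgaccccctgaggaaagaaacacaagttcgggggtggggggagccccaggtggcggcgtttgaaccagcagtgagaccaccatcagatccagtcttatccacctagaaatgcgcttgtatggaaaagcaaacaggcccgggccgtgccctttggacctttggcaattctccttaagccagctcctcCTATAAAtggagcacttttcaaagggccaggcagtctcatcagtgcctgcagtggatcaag

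The capitals in Apoa4 mark an HNF4 match and those in Fabp2 an HNF4 match on the opposite strand followed by a CDX match. Those in Fabp1 mark 3 CDX matches, the first and last of them on the opposite strand, followed by a TATA box. In Apob a TATA box and a CDX match on the opposite strand overlap. No match to these letters was in the windows of Apoa1, Mttp, Cd36 and Npc1l1, and none of the 8 windows held the GATA letters. Other start sites of these genes were not searched. Over 32851 mouse promoters of the same length, the HNF4 letters were in 1.41%, the TATA box in 13.6%, the GATA letters in 11.2% and the CDX letters in 10.9%. A match is a description of the letters, not of a bound site.

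Per unit of length, Fabp1 was the most abundant of the 10 messages in WT organoids, at 2548 ± 124 transcripts-per-million (TPM; SD, 2 lines). Fabp2, Apoa4 and Apoa1 followed at 714, 672 and 653 TPM, and their ranges over the 2 lines overlapped. Mttp was at 310 TPM, and Apob, Dgat1 and Apoc3 were at 153, 144 and 142 TPM, with overlapping ranges for Dgat1 and Apoc3. Npc1l1 (30.8 TPM) and Cd36 (4.42 TPM) were the lowest. The mouse pull-downs, counted per kilobase of a different stretch of each gene, gave another order.

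In WT mice, Apoa1 led with 13516 RPF CPM per kilobase of entry and Fabp2 followed with 11512, and their ranges did not overlap. Mouse entries hold the 5′ region as well as the coding sequence, so this order depends on the length of that region too. The order per kilobase of coding sequence alone was not computed. Apoa4 came to 6903, Fabp1 to 3836, Apoc3 to 1594, Mttp to 1247, Apob to 877, Dgat1 to 312, Npc1l1 to 224 and Cd36 to 89.3 on the same scale. On that scale, among all genes with RPF in a library, Apoa1 ranked 1 or 2 in each of the 6 mice and Fabp2 between 2 and 6. Together the 10 genes took 4.85% to 4.94% of RPF in WT mice, 5.77% to 6.14% in Rptor-labelled mice, and 0.479% and 0.501% of mRNA reads in the WT organoid lines.

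**Figure D1:**
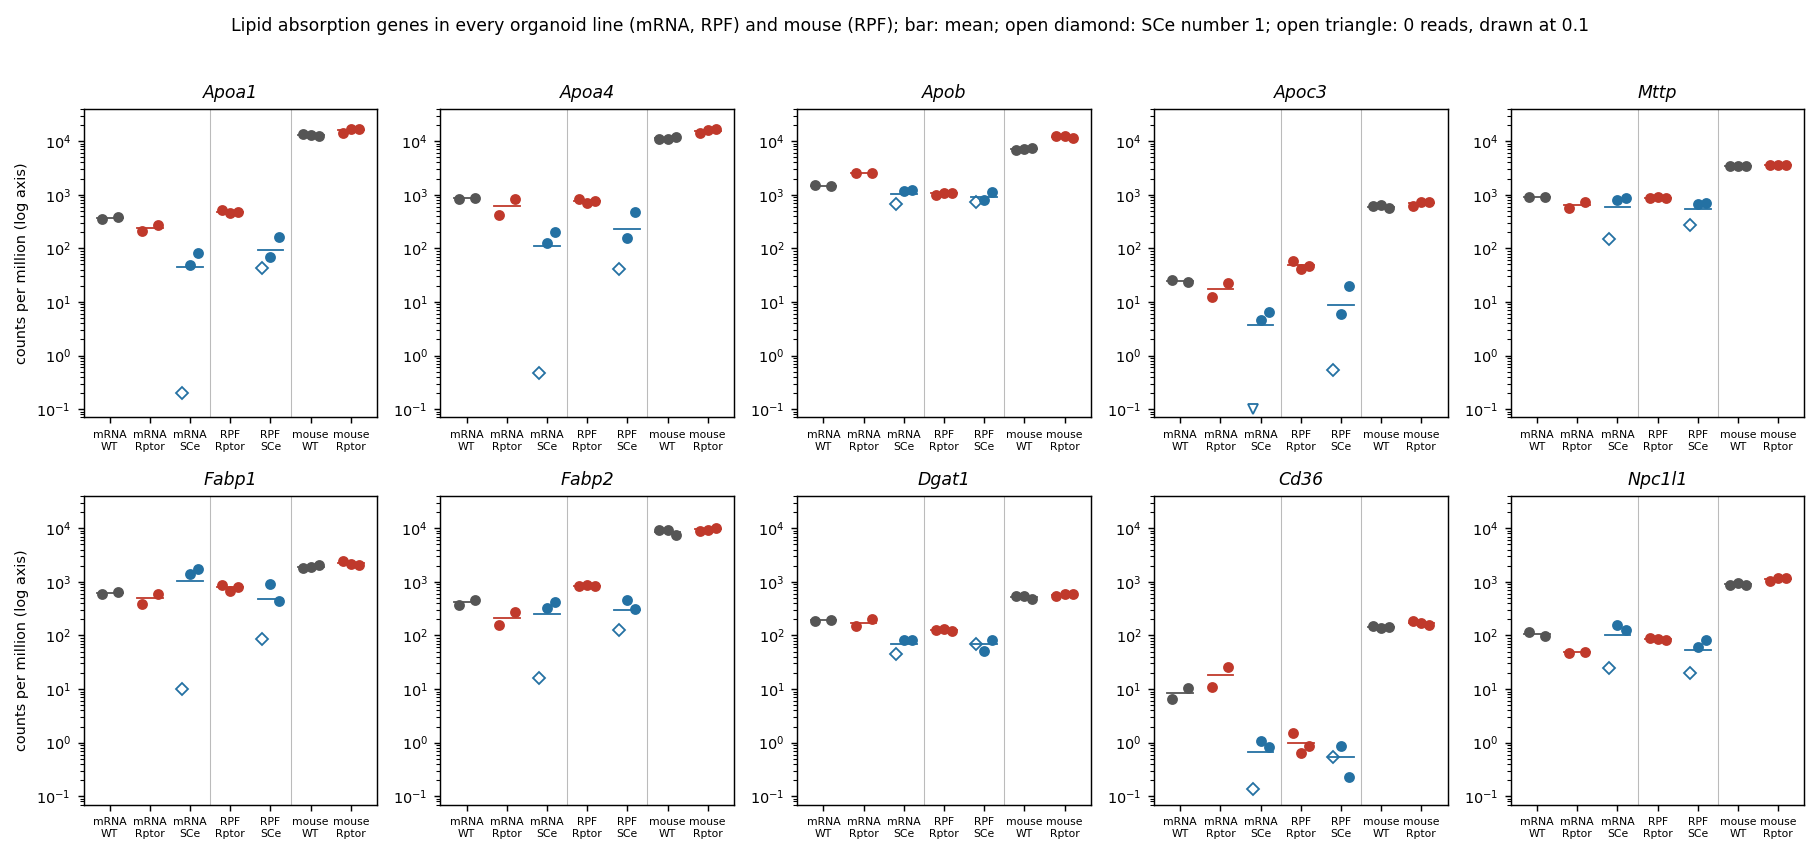
Level of each of the 10 genes in every sample, in counts-per-million (CPM) on a log axis, by group; each point is 1 line, library or mouse, and mRNA, organoid RPF and mouse RPF were scaled separately. SCe line 1 lies far below the other SCe lines for most genes in mRNA, and mouse values lie above organoid values, by least for Fabp1 (1849 CPM in the lowest mouse and 1746 CPM in SCe line 3).

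The level of these messages was compared first between Rptor and WT organoids. By their labels the WT lines carry RPL22.HA and the Rptor lines do not, so loss of Rptor and the tag cannot be told apart. Apob rose in Rptor organoids, and Npc1l1 and Apoa1 fell, while the other 7 genes did not pass the test. These 3 calls of 10 stand beside 22.6% called among 14131 genes tested. The median log2 fold change of the 10 genes was -0.47 against -0.00 over all genes tested. The organoid comparisons of mRNA share their WT, Rptor or SCe lines with each other, so none is independent of the others.

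Npc1l1, the brush border transporter for cholesterol, was at 114 and 97.2 CPM in WT and at 47.0 and 49.7 CPM in Rptor organoids. Both Rptor lines were at about the same level, under both WT lines, and the log2 fold change was -1.13 ± 0.09 (SE; adjusted p = 0.0098). Cd36, a fatty acid translocase, had the opposite sign but a wide spread. It was at 6.52 and 10.3 CPM in WT and at 11 and 25.8 CPM in Rptor organoids (1.13 ± 0.46, adjusted p = 0.145).

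The cytosolic fatty acid binding proteins were lower on average without passing. Fabp2 was at 377 and 450 CPM in WT and at 158 and 269 CPM in Rptor organoids (-0.96 ± 0.27, adjusted p = 0.0665). The groups did not overlap, but the Rptor lines lay far apart. Fabp1 was at 602 and 652 CPM in WT and at 393 and 605 CPM in Rptor organoids (-0.33 ± 0.22, adjusted p = 0.316), with overlapping groups. Dgat1, which adds the last fatty acid to make triglyceride, was at 186 and 196 CPM in WT and at 147 and 198 CPM in Rptor organoids (-0.14 ± 0.15, adjusted p = 0.53), which also overlapped.

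Apob, the structural protein of chylomicrons, was at 1499 and 1471 CPM in WT and at 2490 and 2538 CPM in Rptor organoids. The lines of each group lay close together and far from the other group, and the log2 fold change was 0.76 ± 0.09 (adjusted p = 0.0134). Mttp, which loads lipid onto that protein, was at 909 and 910 CPM in WT and at 555 and 727 CPM in Rptor organoids (-0.50 ± 0.15, adjusted p = 0.069). The assembly partners thus lay on opposite sides of zero.

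Apoa1, the main protein of high density lipoprotein and a chylomicron component, was at 347 and 390 CPM in WT and at 214 and 271 CPM in Rptor organoids. All Rptor lines were below the WT lines (-0.60 ± 0.14, adjusted p = 0.0413). Its neighbour Apoa4, made mainly by the small intestine during fat absorption, was at 833 and 870 CPM in WT and at 415 and 830 CPM in Rptor organoids (-0.45 ± 0.33, adjusted p = 0.364). Apoc3, an inhibitor of triglyceride clearance, was at 25.5 and 23.4 CPM in WT and at 12.1 and 22.9 CPM in Rptor organoids (-0.48 ± 0.31, adjusted p = 0.306). For both, Rptor line 2 lay close to WT and Rptor line 1 at a much lower level.

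Apolipoproteins with Apob made up 55.2% and 54.3% of the reads on the 10 genes in WT lines and 70.5% and 66.1% in Rptor lines. In the same comparison 5 of 5 fetal-like markers were called higher, and 4 of 5 stem and 4 of 5 Paneth markers lower. Of 10 enterocyte markers none was called higher and 2 lower, but 6 lay above and 4 below zero (median 0.19). They summed to 7196 and 7602 CPM in WT and to 6949 and 9890 CPM in Rptor lines. Goblet markers were higher (3 of 5 called, median 1.17), at 1555 and 1654 CPM in WT and 2816 and 3874 CPM in Rptor lines. The part of these cell type shifts in the results was not tested, and in bulk samples fewer cells of a type and less RNA per cell cannot be told apart. The Apoa1 call was lost without WT line 1, WT line 2 or Rptor line 1 (adjusted p = 0.0732, 0.134 and 0.0734), and the Apob call without WT line 1 or 2 (0.0625 and 0.0519). Each of these fits leaves an arm of 1 line, which is assumed to vary like the lines of the other group. On that assumption 8 of the 10 genes were called without Rptor line 2, and with all RNA groups in 1 fit none was.

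**Figure D2:**
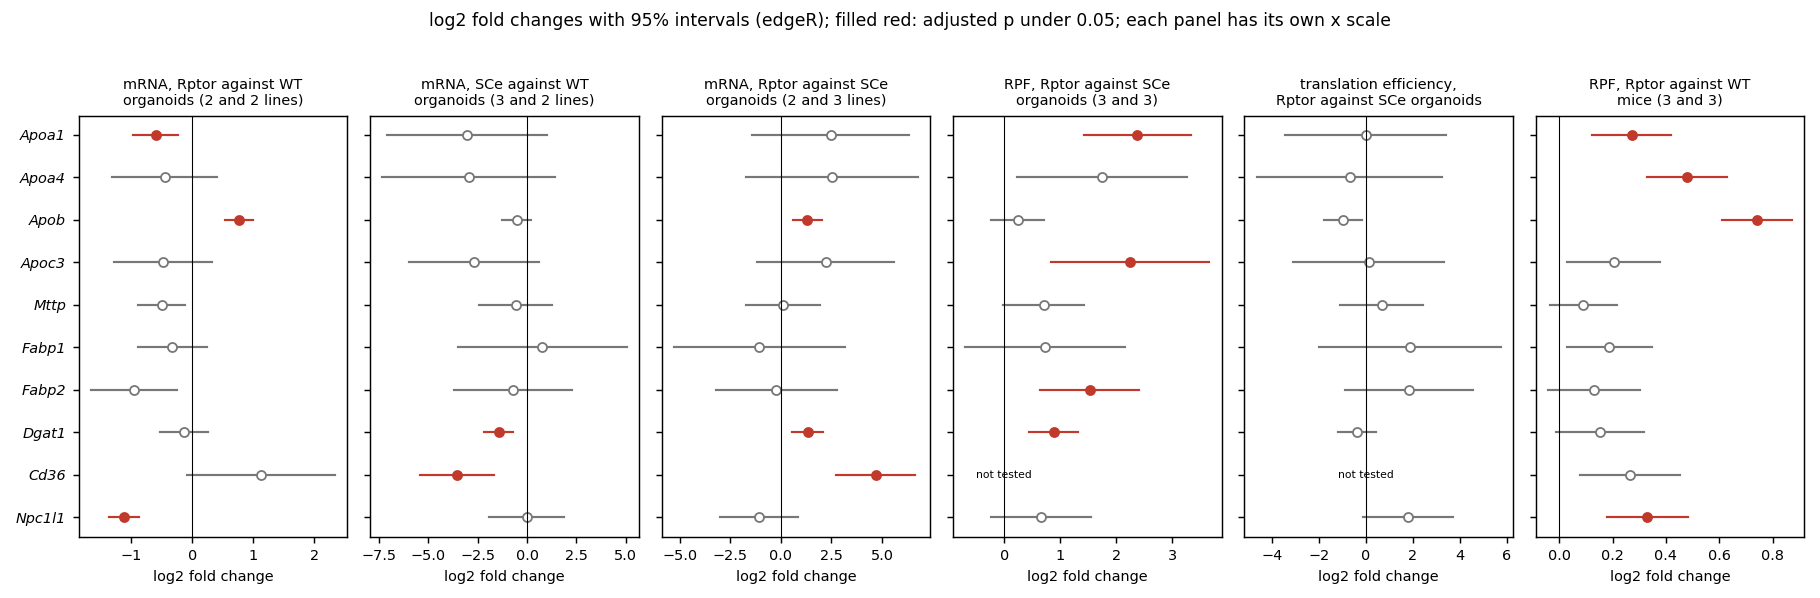
Log2 fold change of each gene with its 95% interval in the 6 comparisons, 1 panel each with its own x scale; filled red points passed an adjusted p of 0.05 (edgeR), RPF are ribosome protected fragments, and Cd36 was not tested where its RPF were too few. Intervals are widest where SCe organoids enter and narrowest in mice, where all 10 points lie above zero.

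The organoids grown for stem cell enrichment (SCe) were next set against WT organoids. Dgat1 and Cd36 mRNA fell in SCe organoids, and the other 8 genes did not pass, with SCe lines far apart from each other. The 2 calls of 10 stand beside 42.3% called among all genes tested, and the median log2 fold change was -1.07 against 0.02 over all genes. Without SCe line 1, 8 of 10 were called, 6 lower and 2 higher, beside 64.1% of all genes. The 5 stem markers summed to between 826 and 1606 CPM in SCe and between 3561 and 5127 CPM in WT lines. None was called higher, and Olfm4 (-5.55, adjusted p = 0.00351) and Ascl2 (-1.81, 0.0093) fell, while Lgr5 was at 0.35 (0.244). Of the 5, 3 lay above and 2 below zero (median 0.11). Without SCe line 1, 1 was called higher and 3 lower (median -0.43). The study also measured Lgr5, Mex3a and Axin2 in SCe cultures by RT-qPCR, which is not weighed here. The label is kept here only as a name. Goblet (4 of 5 called lower, median -3.31) and enteroendocrine markers (4 of 5 called lower, median -3.81) also fell. All 5 fetal-like markers lay above zero (1 called higher, median 2.48). All 5 Paneth markers lay below zero (0 called, median -1.35). The part of these shifts in the results was not tested.

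Dgat1 was at 44.5, 81.3 and 81.9 CPM in SCe lines 1, 2 and 3, all under the WT lines (-1.44 ± 0.28, adjusted p = 0.0145). Cd36 was at 0.134, 1.05 and 0.843 CPM, also all under WT (-3.56 ± 0.73, adjusted p = 0.0168). In SCe line 1 the Cd36 value rests on 4 reads. The Dgat1 call was lost without WT line 1 or 2 (adjusted p = 0.0765 and 0.0856), where the lone WT line is assumed to vary like the SCe lines, and the Cd36 call without WT line 1, WT line 2 or SCe line 3 (0.07, 0.101 and 0.059).

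The apolipoprotein cluster showed how far SCe line 1 lay from the others. Apoa1 was at 0.201, 49.2 and 82.2 CPM (6 reads in line 1), all below WT (-3.04 ± 1.58, adjusted p = 0.177). Apoa4 was at 0.468, 125 and 201 CPM (14 reads in line 1; -2.95 ± 1.71, adjusted p = 0.219). Apoc3 was at 0, 4.65 and 6.52 CPM (-2.66 ± 1.28, adjusted p = 0.154). All SCe lines lay below all WT lines for these genes, and without line 1 the log2 fold changes were -2.47, -2.37 and -2.11 (adjusted p = 0.000772, 0.000691 and 0.000437). Since line 1 was picked out by its low enterocyte markers, these p-values are no independent test.

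Apob was nearer to WT, at 658, 1193 and 1212 CPM (-0.52 ± 0.29, adjusted p = 0.201), and at -0.29 without line 1 (adjusted p = 0.0136). Fabp1 was at 10.0, 1406 and 1746 CPM, so that lines 2 and 3 lay above both WT lines and line 1 far below (0.77 ± 1.66, adjusted p = 0.732). Without line 1 the change was 1.35 ± 0.12 (adjusted p = 0.000594).

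Npc1l1 was at 24.3, 157 and 127 CPM (-0.02 ± 0.75, adjusted p = 0.987), and at 0.44 without line 1 (adjusted p = 0.026). Fabp2 was at 15.8, 321 and 415 CPM (-0.70 ± 1.16, adjusted p = 0.657), and Mttp at 146, 789 and 862 CPM (-0.58 ± 0.72, adjusted p = 0.551). Neither Fabp2 nor Mttp passed without line 1 (adjusted p = 0.416 and 0.189). In lines 2 and 3, then, Fabp1 and Npc1l1 were above WT while Apoa1, Apoa4, Apoc3, Dgat1, Apob and Cd36 were below.

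Rptor and SCe organoids, the pair that Ribo-seq also measured, were compared next. Only SCe organoids had CHIR99021 and valproic acid, and in mRNA only they carry the tag by their labels. Rptor genotype, medium and tag thus cannot be told apart. Apob, Dgat1 and Cd36 mRNA rose in Rptor over SCe organoids. The log2 fold changes were 1.30 ± 0.28 for Apob (adjusted p = 0.0183), 1.32 ± 0.30 for Dgat1 (0.0213) and 4.69 ± 0.77 for Cd36 (0.00824). These 3 of 10 stand beside 42.7% called among all genes, and the median was 1.31 against -0.01.

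Without SCe line 1, 9 of 10 genes were called, beside 60.9% of all genes. Apoa1 (1.88), Apoa4 (1.94), Apoc3 (1.65), Apob (1.06), Dgat1 (1.08) and Cd36 (4.27) were higher in Rptor organoids. Fabp1 (-1.66), Fabp2 (-0.79) and Npc1l1 (-1.55) were lower. Mttp was at -0.37 (adjusted p = 0.0829). The 3 calls of the full fit were lost without single Rptor lines, which leaves an arm of 1 line assumed to vary like the SCe lines, namely Apob without line 1 or 2 (adjusted p = 0.0926 and 0.098), Dgat1 without line 1 or 2 (0.0691 and 0.132) and Cd36 without line 2 (0.0639).

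**Figure D3:**
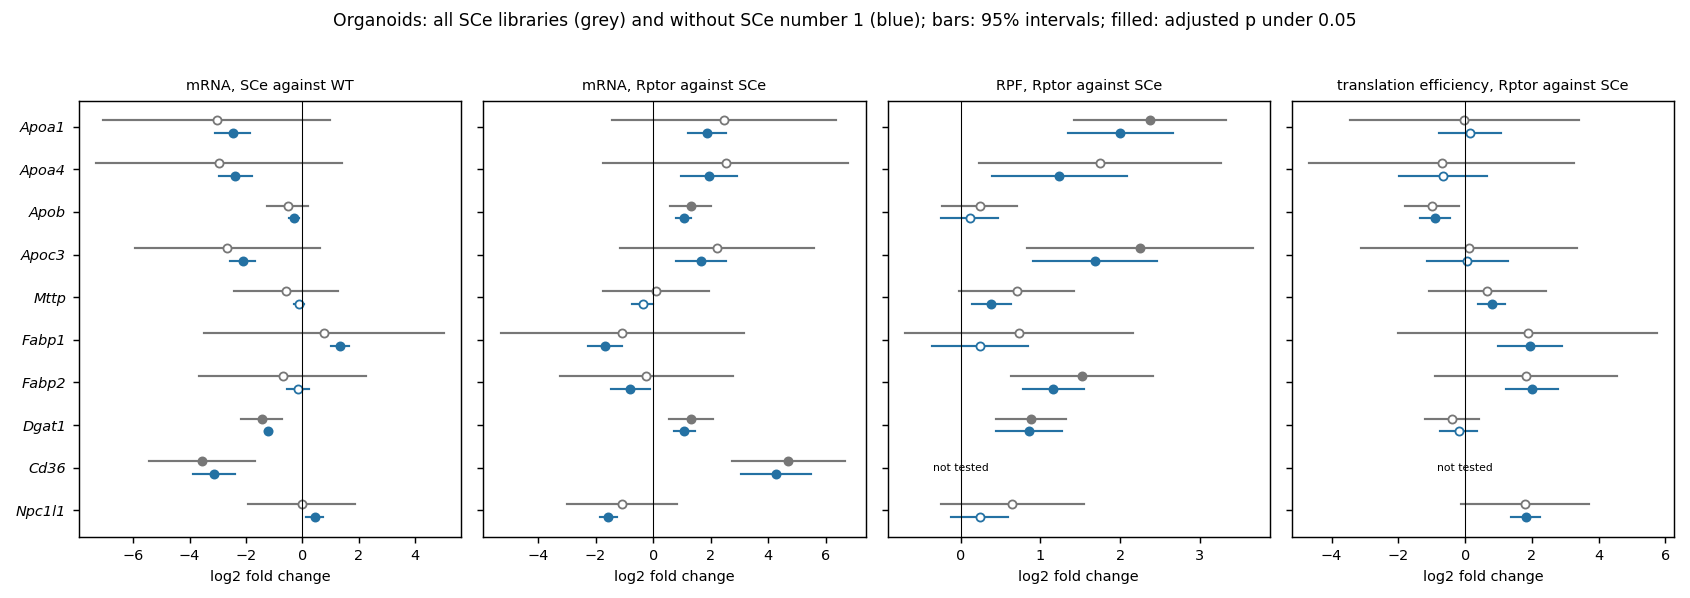
Log2 fold change of each gene with its 95% interval in the 4 comparisons that include SCe organoids, with all SCe samples and without SCe number 1. Intervals narrow once that sample is left out, and in mRNA Fabp1 and Npc1l1 then lie on the opposite side of zero from the apolipoproteins.

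Ribosome footprints of the same contrast were then compared. Medium and Rptor genotype differ together here as well and cannot be told apart. Apoa1, Apoc3, Fabp2 and Dgat1 RPF were higher in Rptor-labelled organoids than in SCe organoids. These 4 of 9 genes tested stand beside 16.5% called over all genes, and without SCe library 1 the count was 6 beside 23.8%. All 9 log2 fold changes were above zero, with a median of 0.88 against -0.02 over all genes.

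Apoa1 was at 528, 452 and 469 RPF CPM in Rptor-labelled and at 42.9, 70.1 and 161 CPM in SCe libraries. The groups did not overlap (2.38 ± 0.42, adjusted p = 0.00685), and the call held without SCe library 1 (2.00, adjusted p = 0.00207). Apoc3 was at 57.5, 40.8 and 47.4 CPM against 0.543, 5.99 and 19.4 CPM (2.25 ± 0.62, adjusted p = 0.0408). Apoa4 was at 816, 707 and 770 CPM against 41.8, 154 and 479 CPM (1.75 ± 0.67, adjusted p = 0.109). The 3 neighbours thus had all Rptor-labelled libraries above all SCe libraries, although Apoa4 passed only once SCe library 1 (1.24, adjusted p = 0.0427) or 3 (3.00, adjusted p = 0.00784) was left out.

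Fabp2 was at 845, 875 and 838 RPF CPM against 125, 458 and 311 CPM in SCe libraries (1.52 ± 0.39, adjusted p = 0.0302), with no overlap. Fabp1 was at 861, 688 and 808 CPM against 84.1, 907 and 436 CPM (0.73 ± 0.63, adjusted p = 0.464), with SCe library 2 above every Rptor-labelled library. Dgat1 was at 129, 132 and 121 CPM against 69.4, 52.2 and 82.6 CPM (0.88 ± 0.19, adjusted p = 0.0163), with no overlap and little spread among the Rptor-labelled libraries.

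Mttp was at 861, 921 and 875 RPF CPM against 276, 665 and 693 CPM (0.70 ± 0.32, adjusted p = 0.163). Apob was at 993, 1070 and 1099 CPM against 733, 798 and 1146 CPM (0.24 ± 0.21, adjusted p = 0.466). Npc1l1 was at 88.7, 86.4 and 83.8 CPM against 20.1, 59.9 and 82.6 CPM (0.65 ± 0.39, adjusted p = 0.294). For Apob alone of these 3, SCe library 3 exceeded all Rptor-labelled libraries. Mttp passed without SCe library 1 (0.38, adjusted p = 0.0326). Cd36 had 9, 4 and 7 RPF against 1 in each SCe library and was not tested.

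Enterocyte markers differed in the same direction (3 of 10 called higher), with a summed level between 7323 and 7971 CPM in Rptor-labelled and between 1831 and 4158 CPM in SCe libraries. Goblet (5 of 5 called higher, median 2.39) and enteroendocrine markers (3 of 5 called higher, median 3.28) had larger medians than the enterocyte markers (0.97), and the part of these markers in the result was not tested. Without any 1 of the 3 Rptor-labelled libraries the calls of Dgat1 (adjusted p = 0.0659 to 0.0739), Fabp2 (0.0856 to 0.0893) and Apoc3 (0.0903 to 0.123) were lost, as was that of Fabp2 without SCe library 3 (0.0504) and of Apoc3 without SCe library 2 (0.108).

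Translation efficiency, the change in RPF relative to the change in mRNA, was then tested between Rptor and SCe organoids. None of 9 genes passed in edgeR, beside 2.96% called over all genes. Before adjustment 1 gene, Apob, was under 0.05 (-1.0 ± 0.37, adjusted p = 0.161), and DESeq2 also called 0. Apob mRNA was 1.30 higher in Rptor organoids on the log2 scale while its RPF were 0.24 higher. The mRNA and RPF arms used Rptor organoids of different labelled genotypes, so a difference between assays and one between genotypes cannot be told apart. Medium goes with the SCe group in both assays and cannot be told apart from Rptor genotype either.

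With SCe number 1 left out of both assays, an alternative chosen after seeing the data, 5 of 9 genes were called, beside 18.5% of all genes. Fabp2 (1.99 ± 0.35, adjusted p = 0.00601), Fabp1 (1.94 ± 0.43, 0.0142), Npc1l1 (1.82 ± 0.19, 0.000817) and Mttp (0.79 ± 0.18, 0.0169) were higher and Apob (-0.90 ± 0.20, 0.0134) lower in Rptor organoids. Apoa1 (0.15), Apoa4 (-0.66), Apoc3 (0.07) and Dgat1 (-0.20) did not pass. The labels do not say whether SCe number 1 is the same line in both assays.

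In mice, Rptor-labelled pull-downs held more RPF of 4 of the genes than WT pull-downs. Apob, Apoa4, Npc1l1 and Apoa1 rose, and none of the 10 fell. These 4 of 10 stand beside 13.4% called over all genes, and the median was 0.24 against -0.02. The changes were small and the libraries of a group lay close together.

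Apob was at 6940, 7235 and 7515 RPF CPM in WT and at 12491, 12289 and 11494 CPM in Rptor-labelled mice. The groups were far apart compared with their own spread (0.74 ± 0.06, adjusted p = 7.32e-07). Apoa4 was at 10905, 10991 and 12059 CPM against 14319, 16056 and 16967 CPM (0.48 ± 0.07, adjusted p = 0.000312). Apoa1 was at 13762, 13279 and 12679 CPM against 14365, 16612 and 16988 CPM (0.27 ± 0.07, adjusted p = 0.017). No Rptor-labelled mouse overlapped WT for these 3 genes.

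Apoc3 was at 614, 633 and 559 CPM in WT and at 619, 716 and 739 CPM in Rptor-labelled mice, with overlapping groups (0.20 ± 0.08, adjusted p = 0.118). Mttp was at 3412, 3435 and 3372 CPM against 3631, 3661 and 3588 CPM. All Rptor-labelled mice were above WT for Mttp, but the change was small and did not pass (0.091 ± 0.06, adjusted p = 0.359).

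Npc1l1 was at 867, 936 and 881 CPM in WT against 1042, 1179 and 1157 CPM in Rptor-labelled mice (0.33 ± 0.07, adjusted p = 0.00607), again without overlap. Cd36 was at 148, 137 and 142 CPM against 183, 172 and 156 CPM, without overlap (0.27 ± 0.09, adjusted p = 0.0576). Cd36 is also a gene of capillary endothelium and fat cells, whose markers differed between the groups. Summed endothelial markers were between 58.9 and 73.3 CPM in WT and between 83.3 and 87.7 CPM in Rptor-labelled mice (2 of 5 called higher), and adipocyte markers between 64.1 and 69.5 CPM and between 79.7 and 88.0 CPM (1 of 3 tested called higher). Their part in the Cd36 value was not tested.

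Fabp1 was at 1849, 1913 and 2032 CPM in WT against 2429, 2116 and 2068 CPM in Rptor-labelled mice, without overlap (0.19 ± 0.07, adjusted p = 0.114). Fabp2 was at 9186, 9333 and 7520 CPM against 9035, 9292 and 10171 CPM, with overlap (0.13 ± 0.08, adjusted p = 0.327). Dgat1 was at 546, 535 and 471 CPM against 538, 585 and 592 CPM, also with overlap (0.15 ± 0.08, adjusted p = 0.224). None of these 3 genes passed, and their log2 fold changes lay between 0.13 and 0.19.

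Enterocyte markers as a whole did not follow the 4 genes, with a summed level of 40736 to 42193 CPM in WT and of 40178 to 41356 CPM in Rptor-labelled mice, and 2 of 10 called higher and 2 lower. Goblet markers were higher (21438 to 21825 against 25094 to 28074 CPM) and Paneth markers lower (7171 to 7846 against 3759 to 5047 CPM) in Rptor-labelled mice. Stem markers (2 of 5 called lower, 552 to 579 against 348 to 531 CPM) and immune markers (1 of 5 called lower, 1226 to 1288 against 960 to 1027 CPM) were lower as well, and their part in the result was not tested. The Apoa1 call was lost without WT mouse 2 or 3 or Rptor-labelled mouse 2 or 3 (adjusted p = 0.0747, 0.0925, 0.105 and 0.0661), and the Npc1l1 call without Rptor-labelled mouse 2 (0.0514).

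**Figure D4:**
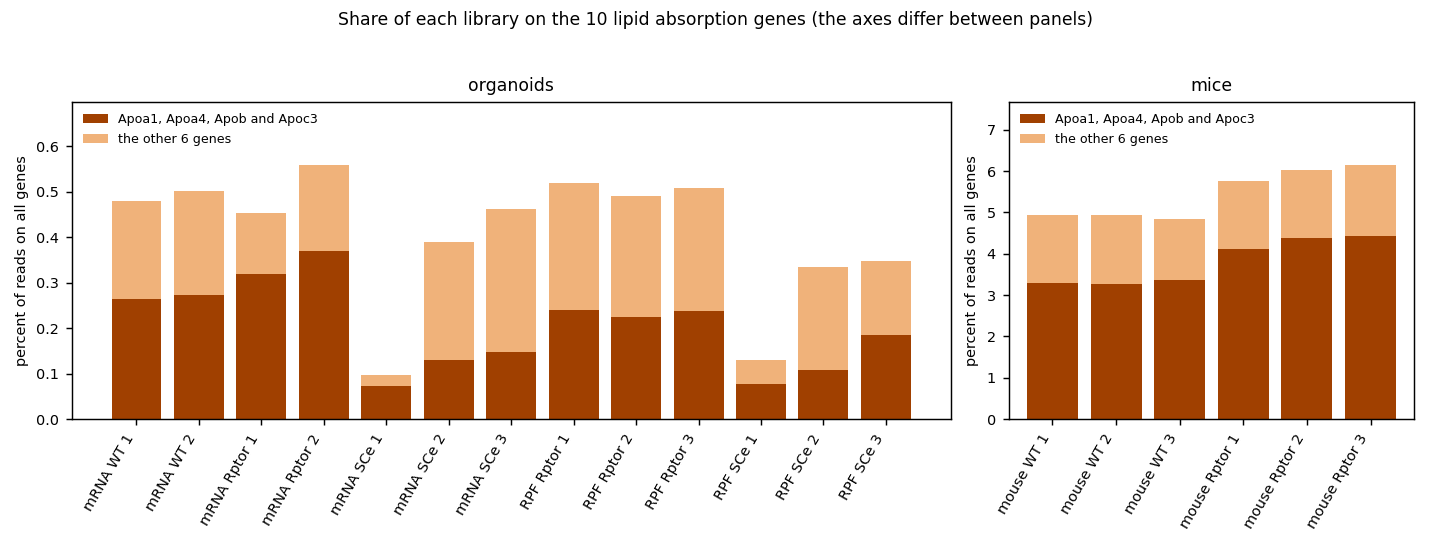
Percent of all reads or RPF in a sample that fell on the 10 genes, split into the 4 apolipoproteins and the other 6 genes, by sample, with different y axes for organoids and mice. In mice the share was between 4.85% and 6.14%, against 0.098% to 0.559% in organoids, and SCe number 1 had the lowest share of the SCe samples in each assay.

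The other genes of the pathway were followed as 4 lists of 47 genes in all, covering uptake and activation, esterification, lipoprotein assembly with lipid droplets, and transcriptional regulators. In Rptor against WT organoids, 4 of 46 genes tested rose and 9 fell, beside 1638 higher and 1557 lower of all 14131 genes (22.6% called). The 4 with the smallest adjusted p all fell. They were Fabp5, another fatty acid binding protein (-0.80, adjusted p = 0.0108), Surf4, a cargo receptor for lipoprotein export (-0.59, 0.0134), Lpin2, a phosphatidate phosphatase (-0.40, 0.017), and Ppara, a fatty acid sensing nuclear receptor (-0.65, 0.0172).

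In SCe against WT organoids, none of 46 pathway genes rose and 24 fell, and without SCe line 1 the counts were 6 and 30. Over all 14925 genes 3342 rose and 2965 fell (42.3% called), and 64.1% were called without line 1. Hnf4a, a master regulator of enterocyte genes, fell by 1.12 on the log2 scale (adjusted p = 0.00199). Plin3, a lipid droplet coat protein (-0.84, 0.00358), Agpat2, an acyltransferase of triglyceride synthesis (-1.09, 0.00415), and Nr1h3, the oxysterol receptor LXR alpha (-1.71, 0.00435), fell as well.

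In Rptor against SCe organoids, 20 of 46 rose and 1 fell in mRNA (26 and 4 without SCe line 1), and 10 of 44 rose and none fell in RPF (11 and none without SCe library 1). Over all genes the shares called were 42.7% in mRNA (60.9% without line 1) and 16.5% in RPF (23.8% without library 1). In mRNA the leading genes were Plin3 (1.1, adjusted p = 0.00187), Acsl3, which activates fatty acids (0.75, 0.00301), Agpat2 (1.11, 0.00328) and Pparg (1.14, 0.00347). In RPF they were Ppara (3.75, 0.000511), Tm6sf2, a factor in lipoprotein lipidation (1.54, 0.00347), Soat2, which esterifies cholesterol (1.49, 0.0041), and Hnf4g (2.32, 0.00421). For translation efficiency 1 of 44 was called, Ppara (2.21, adjusted p = 0.0405), which is a share near the 2.96% over all genes.

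In mice, 15 of 46 pathway genes rose and 4 fell, with a median of 0.20 against -0.02 over all genes, of which 859 rose and 687 fell among 11515 (13.4% called). Abcg8, part of a sterol exporter (0.58, adjusted p = 0.000227), Apoc2, the activator of lipoprotein lipase (0.49, 0.000231), Lpin2 (0.73, 0.000382) and Hnf4g (0.49, 0.000407) led. By list, 5 of 11 uptake and activation genes rose and 1 fell, 2 of 9 esterification genes rose and 1 fell, 5 of 12 assembly and droplet genes rose and none fell, and 3 of 14 regulators rose and 2 fell. Lpin2 was thus lower in Rptor organoid mRNA and higher in Rptor-labelled mouse RPF, and the difference was not tested.

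**Figure D5:**
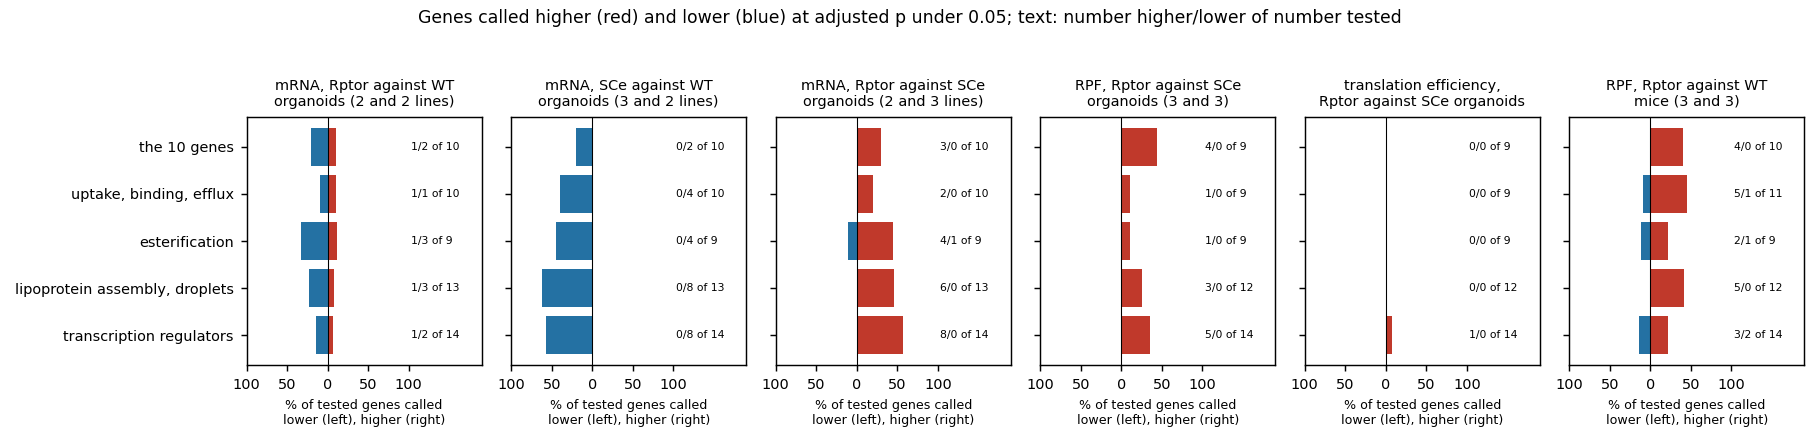
Percent of tested genes called higher (red, right) or lower (blue, left) at an adjusted p under 0.05 (edgeR) in each of the 5 lists shown and each comparison, with the counts printed as higher/lower of tested. In these 5 lists the calls in SCe against WT organoids, fitted with all SCe lines, lie on the lower side, and those in mice lie mostly on the higher side (15 higher and 4 lower of 46 pathway genes).

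Beside the chromosome 9 cluster, Sik3, Zpr1 and Bud13 were tested and Apoa5 was near 0 and not tested. Of the 3, Sik3, a kinase gene, was called in SCe against WT organoids (0.47, adjusted p = 0.0104) and in Rptor against SCe organoids (-0.28, adjusted p = 0.041), with signs opposite to the Apoa1 values of those comparisons. In mice and in RPF of organoids none of the 3 passed.

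Over the 7 mRNA lines, the genes whose profile was most like the mean of the 10 were Rdh7, Chp2, Aadac, Gm10639 and Clec2h. Their root mean square difference from that mean, each profile centred on the log2 scale, was between 0.21 and 0.27 among 15135 genes. Apoa1 and Apoa4 were the nearest pair within the set (0.19), followed by Apob with Dgat1 (0.43). Apoc3 was nearest to Apoa1 (0.46) and Mttp to Npc1l1 (0.50). Fabp2 was nearest to Mttp (0.71), Fabp1 to Fabp2 (0.89) and Cd36 to Apoc3 (1.59). SCe line 1 is the lowest point of most of these profiles, far below the other 6 lines.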

How the data were processed

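Sequencing of mRNA (TruSeq stranded) and of RPF from HA-tagged ribosomes was trimmed, for RPF with cutadapt 1.18, and quantified with Salmon 1.1.0 against GENCODE vM21 (mm10) by the authors, per the study's methods and processing notes. The deposited files hold estimated counts per transcript. The deposited TPM values were used for per-length mRNA levels only. Organoid Ribo-seq entries cover coding sequences, with separate entries for the region before them, which were left out of gene counts. Mouse entries also hold the 5′ region. For RPF, CPM per kilobase of the entry replaced TPM, whose effective length was made for longer fragments. A deposited table of the authors' own translation efficiency test was not used.

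Here counts were summed per gene, technical libraries of a line were summed, and values were rounded to whole counts. Each comparison was fitted on its own groups with the quasi-likelihood test of edgeR 4.0.16 (R 4.3.3; filterByExpr, TMM scaling, Benjamini-Hochberg adjusted p over all genes tested, called under 0.05). Translation efficiency was an interaction of assay and group, with TMM scaling within each assay. CPM were scaled within organoid mRNA, organoid RPF and mouse RPF separately. DESeq2 1.42.0 was an alternative, as were the settings listed in the closing section. The code was tested on simulated counts.

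Named were the 10 genes, per comparison the 4 genes of the pathway lists with the smallest adjusted p among those called, 4 flanking genes of the apolipoprotein cluster, Rptor, and the 5 genes of nearest profile with each gene's nearest partner in the set. Genes and lists were chosen with earlier results of these data known, and no test was adjusted over the lists alone. Intervals of fold changes come from the edgeR fits and include the spread between samples, while the limit given for a count of 0 covers counting error only.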

Additional observations from a re-analysis of the deposited data

Results flagged for a closer look

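Apoa1, Apoa4, Mttp and Npc1l1 differed in sign between the organoid mRNA and the mouse RPF comparison of Rptor against WT, with every Rptor organoid line below every WT line and every Rptor-labelled mouse above every WT mouse. The log2 fold changes were -0.60 in organoids and 0.27 in mice for Apoa1, -0.45 and 0.48 for Apoa4, -0.50 and 0.091 for Mttp, and -1.13 and 0.33 for Npc1l1. Of these, Apoa1 and Npc1l1 passed the test in both comparisons, Apoa4 in mice only, and Mttp in neither. The difference itself was not tested. These genes were picked from the set because their groups were fully separated in both comparisons, in opposite directions. With so few samples per group, such separation can also arise by chance. The share of all genes with the same pattern was not computed, so no conclusion about the set is drawn from it. Assay, Cre driver and system (organoid or mouse) all differ between the comparisons. The RPL22.HA tag differs between the arms in organoids but not in mice. Mice were taken 24 h after tamoxifen, and the labels give no such time for organoids. The parts of these differences cannot be told apart. Apob was higher in both.

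Entries for the 5′ region before the coding sequence, which the comparisons do not use, held a few Apoa1 RPF in Rptor-labelled organoids. The median share over the 3 Rptor-labelled libraries was 0.0779%, from 7 RPF pooled, against 0 beside 856 coding RPF in SCe libraries, which allows a share of up to 0.35%. A difference was not detectable at this depth.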

How the results depend on the processing

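Fits were repeated with DESeq2, another scaling, no filter on low counts, a length offset, the 10 most abundant genes left out, an adjusted p of 0.01, a replicate block, separate technical libraries, all RNA groups in 1 fit, and each sample left out in turn. For Rptor against WT organoids the 3 genes called became 5 with DESeq2, 1 at an adjusted p of 0.01, 6 with technical libraries separate, 0 with all RNA groups in 1 fit, and between 1 and 8 when a sample was left out. For SCe against WT mRNA the 2 calls became 0 at 0.01 and between 0 and 8 with a sample left out. For Rptor against SCe mRNA the 3 calls became 1 at 0.01 and between 0 and 9 with a sample left out. For RPF of Rptor-labelled against SCe organoids the 4 calls became 1 with the length offset, 1 at 0.01, and between 1 and 6 with a sample left out. For translation efficiency the 0 calls became 5 with SCe number 1 left out of both assays and between 0 and 2 with a single sample left out, and over all genes 121 higher and 197 lower became 501 and 705 with DESeq2. In mice the 4 calls became between 2 and 5 with a mouse left out. The cause was not tested in these cases.

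Signs turned for values close to 0 or with a wide spread, and the cause was not tested. With a sample left out, Dgat1 in Rptor against WT mRNA ran from -0.36 to 0.058, Npc1l1 in SCe against WT mRNA from -0.46 to 0.44, and in Rptor against SCe mRNA Mttp ran from -0.37 to 0.45 and Fabp2 from -0.79 to 0.33. In translation efficiency Apoa1 ran from -0.85 to 0.73, Apoa4 from -1.50 to 0.54 and Apoc3 from -0.52 to 2.03 with a sample left out. Npc1l1 in SCe against WT mRNA was 0.012 with technical libraries separate. Apoa1 translation efficiency was 0.0039 with DESeq2, 0.36 with the length offset and 0.15 with SCe number 1 left out of both assays, and that of Apoc3 was -0.036 with the length offset.

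Same-numbered samples were not paired by the labels. Correlations of their deviations were between -0.04 and 0.03 in Ribo-seq and between 0.13 and 0.25 in mRNA, where only 2 pairs exist. With a replicate block the counts of called genes were 6, 2 and 3 in the mRNA comparisons, 5 for organoid RPF, 0 for translation efficiency and 4 in mice. The replicate block also turned Fabp1 in SCe against WT mRNA to -2.35, and in Rptor against SCe mRNA Fabp1 to 2.00 and Fabp2 to 1.51. In translation efficiency the replicate block gave -1.19 for Apoc3, -0.049 for Mttp and -0.75 for Fabp1, and called 2 genes higher and 2 lower of all genes tested.

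Group sizes of 2 and 3, SCe number 1 and the low RPF depth of SCe libraries limit these results. Cd36 in organoid RPF had too few reads to test.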

Other observations

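The 5′ entries of Dgat1, Apoa4, Fabp1 and Apob held a larger share of RPF than those of Apoa1. Over all genes, such entries held 3.8% to 4.3% of RPF in Rptor-labelled and 3.0% to 7.0% in SCe libraries. In Rptor-labelled organoids pooled, 6.89% of Dgat1 RPF, 3.20% of Apoa4 RPF, 2.00% of Fabp1 RPF and 0.821% of Apob RPF lay on entries before the coding sequence. In SCe organoids pooled, the shares were 3.87% for Dgat1 (22 RPF), 1.48% for Apoa4 (35 RPF), 2.02% for Fabp1 and 1.12% for Apob. For Dgat1 the single libraries overlapped, with 6.18%, 8.08% and 6.42% in Rptor-labelled and 3.76%, 10.3% and 2.72% in SCe libraries. For Apoa4 they overlapped as well, with 3.33%, 2.92% and 3.29% against 2.53%, 3.23% and 1.29%. No test was run on these shares.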
